A study of Mus musculus with 2 samples.

Results

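The Zfp genes are mouse genes named for zinc finger proteins, and 262 of them were measured here out of 11722 measured genes. They were the genes whose symbol is Zfp followed by a digit, without the mRNA decay genes Zfp36, Zfp36l1 and Zfp36l2. Where several probe sets are annotated to 1 such gene and no other, the gene was read by the one whose log2 signals had the highest mean over both arrays. The genes were then selected on the same signals: a gene is called measured, and was kept, where its probe set reached the floor, the median of all non-control probe sets of an array, on at least 1 array. Of 333 Zfp genes with such a probe set, 217 reached the floor on both arrays, 8 on the LPS array alone, 37 on the control array alone and 71 on neither. Symbols alone define this set, so it holds proteins of many kinds, and also the antisense RNA gene Zfp652os and the pseudogene Zfp862-ps.

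The samples were macrophages grown from bone marrow of C57BL6 mice in medium with serum and macrophage colony-stimulating factor, the cytokine that drives marrow precursors to become macrophages. One array held RNA of cells treated with lipopolysaccharide (LPS), the bacterial outer membrane component sensed by Toll-like receptor 4, and 1 array held RNA of control cells without LPS. The labels state no dose, no duration, no age or sex and no number of animals behind either array. With 1 array per condition there is no replicate spread and no test, so each difference describes these 2 arrays, and their number limits the precision of every value.

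Most Zfp proteins carry zinc fingers of the C2H2 type, small folds that grip a zinc ion and read bases of DNA. Many also carry a KRAB domain, which recruits the co-repressor TRIM28 and through it the histone methyltransferase SETDB1, and such proteins silence mobile elements and some imprinted genes. KRAB zinc finger genes multiplied by local duplication and often lie next to each other, and other Zfp proteins bind RNA, serve in chromatin complexes or act on ribosomes.

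All 9 macrophage markers, Csf1r and Adgre1 among them, were above the floor on both arrays, with signals of 654 or more on the LPS array and 1094 or more on the control array. The 5 LPS response markers, among them Tnf and Il6, summed to 47454 on the LPS array and 3607 on the control array. Of 5 T cell markers 1 was above the floor on each array, with sums of 95.4 on the LPS array and 116 on the control array. Of the 4 B cell markers with a probe set of their own 1 was above the floor on each array, with sums of 70.8 on the LPS array and 168 on the control array. Of 5 fibroblast markers 1 was above it on each array, with sums of 94.9 on the LPS array and 107 on the control array. Of 4 mast cell markers 0 were above it on either array, with sums of 51.4 on the LPS array and 24.2 on the control array. Neutrophil markers summed to 687 on the LPS array and 456 on the control array with 3 of 5 above the floor on each, and the erythroid ones to 111 on the LPS array and 116 on the control array, with 2 of 3 above the floor on the LPS array and 1 of 3 on the control array. The part of these cells in the results below was not tested, and in bulk RNA fewer cells of a type and less RNA per cell cannot be told apart.

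With deposited signals below the floor set to the floor, most Zfp genes were lower on the LPS array. Of the 262 ratios of LPS over control, 225 were below 1 and 37 above, or 85.9% below beside 71.1% of all measured genes. The 225 include all 37 genes above the floor on the control array alone, whose direction the floor fixes. They also include 4 genes above it on the LPS array alone, whose deposited signal was higher on that array. Of the 217 genes at the floor or above on both arrays, 184 were below 1 (84.8%, background 71.0%). Their signals had a median of 74.9 on the LPS array, with a range of 1.67 to 1779, against a median of 133 and a range of 15.4 to 2181 on the control array. As deposited, 109 of the 262 were lower by 2-fold or more (41.6%, background 26.2% of all measured genes), 7 were higher by 2-fold or more (2.67%, background 8.22%) and 146 lay within 2-fold. These signals also chose the members, so the shares are descriptions. The median log2 ratio, LPS over control, was -0.93 for the Zfp genes and -0.42 for all measured genes. For the ratio, a signal below the floor counts as the floor itself, and the fold is then a bound, written as at least N-fold. Because reaching the floor on 1 array alone favours a difference, the 217 genes at the floor or above on both arrays were counted separately: 88 of them were lower (40.6%, background 26.7%) and 6 higher (2.76%, background 8.42%), with a median of -0.89 beside -0.45 for the 9822 such genes of the whole table. At a size of 3-fold, 30 of the 262 were lower (11.5%, background 12.2%) and 2 higher (0.763%, background 5.22%). At 1.5-fold, 171 were lower (65.3%, background 42.0%) and 17 higher (6.49%, background 13.0%).

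How far the counts stood from the background depended on the scaling. After the ratios were centred on the median of all measured genes, 43 Zfp genes were lower (16.4%, background 15.3%) and 17 higher (6.49%, background 13.1%). After a loess fit of the ratio on mean log2 signal, which takes out the dependence of the array-wide shift on brightness, 27 were lower (10.3%, background 12.8%) and 20 higher (7.63%, background 13.8%). Quantile normalization left 32 lower (12.2%, background 15.6%) and 16 higher (6.11%, background 11.6%). Scaling to the poly-A controls, RNAs added before labelling in the standard protocol, left 62 lower (23.7%, background 18.2%) and 14 higher (5.34%, background 11.0%), and scaling to the hybridization controls left 98 lower (37.4%, background 25.0%) and 9 higher (3.44%, background 8.64%).

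The share of lower Zfp genes lay above the background as deposited and with both kinds of spiked-in control, close to it after median centring, and below it after loess and quantile normalization. The share of higher Zfp genes lay below the background in each of these 6 cases. Of the Zfp genes past 2-fold as deposited, 6.03% were higher, beside 23.9% of all measured genes past 2-fold. This share was 28.3% after median centring (all measured genes 46.2%), 33.3% after quantile normalization (42.7%) and 42.6% after loess (51.8%). It was 18.4% with the poly-A controls (37.7%) and 8.41% with the hybridization controls (25.7%). The Zfp median lay under that of all measured genes in each of these 6 cases, with a log2 difference of -0.50 as deposited. Median centring and both control scalings subtract 1 value from every gene, so they keep this difference by construction and are no check on it. After loess and after quantile normalization the difference was -0.30.

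**Figure D1:**
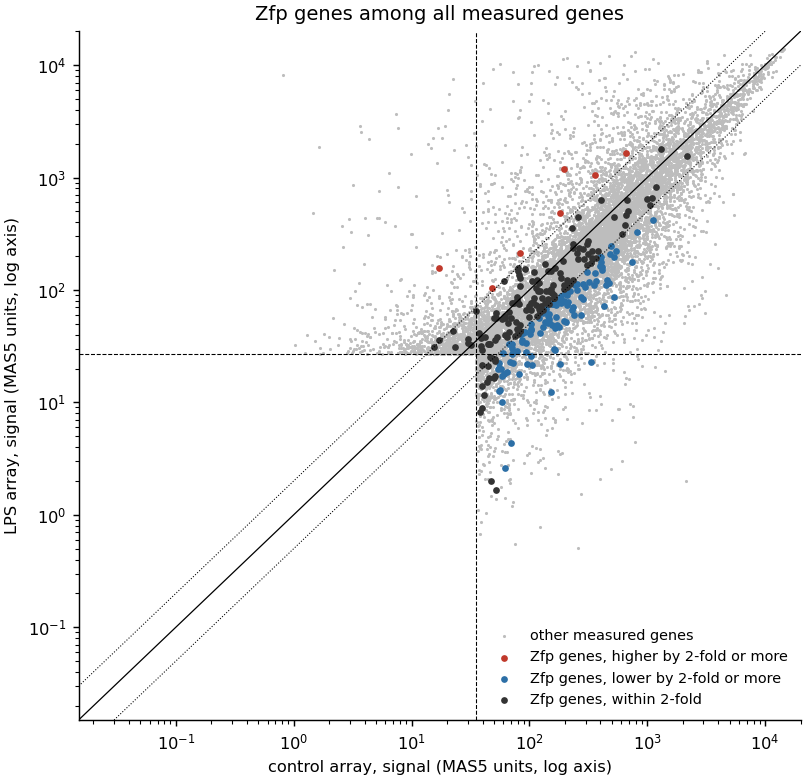
Signal on the LPS array (vertical, MAS5 units, log axis) against signal on the control array (horizontal, MAS5 units, log axis) for the 262 measured Zfp genes and all other measured genes (grey). Dashed lines are the floors, the solid line is equality and dotted lines are 2-fold; 109 Zfp genes are coloured as lower and 7 as higher, after flooring.

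The Zfp median lay under that of all measured genes in each of 6 ranges of signal. In genes of mean log2 signal 5 to 6 the median log2 ratio was -0.95 for 65 Zfp genes and -0.43 for all measured genes. Between 6 and 7, where the array-wide shift was deepest, the medians were closer, at -0.93 for 84 Zfp genes and -0.81 for all. From 7 to 8 they were -1.07 for 53 Zfp genes and -0.70 for all, and from 9 to 14 they were -0.51 for 13 Zfp genes and -0.17 for all. These medians describe 2 arrays, and probes of related Zfp genes can share transcripts, so the genes are not independent of each other.

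**Figure D2:**
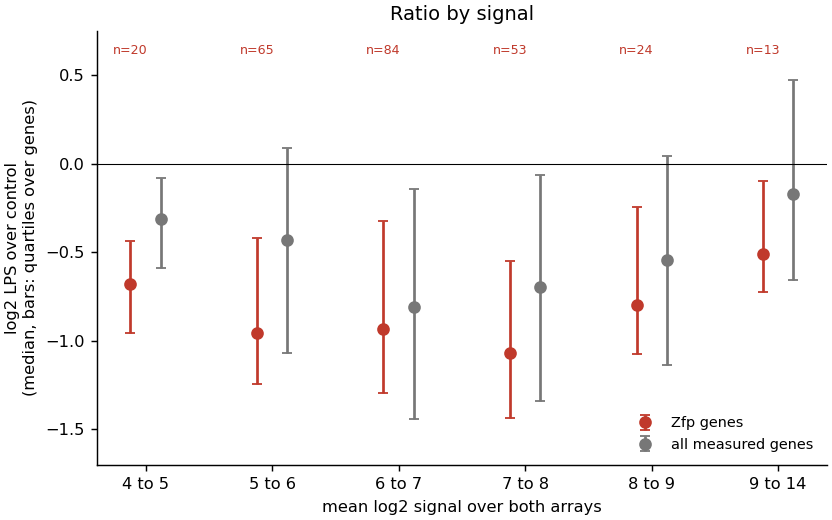
Median log2 LPS over control (vertical) in 6 ranges of mean log2 signal over both arrays (horizontal), for the measured Zfp genes (red) and all measured genes (grey), with bars from the lower to the upper quartile over genes. In each range the Zfp median lies under the median of all measured genes, from -0.68 against -0.31 at signal 4 to 5 to -0.51 against -0.17 at 9 to 14. At signal 4 to 5 most genes reached the floor on 1 array alone, so the floor largely sets these ratios.

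The 7 Zfp genes that were higher by 2-fold or more also passed this size under each of the 5 scalings, which makes 2.67% of the Zfp genes where 8.04% of all measured genes did so. Each of the 5 scalings raised the ratios of these 7 genes, so passing them is no check on the calls. With the floor raised to the 65th percentile, Zfp811 was at 0.77 and Zfp691 at 0.19, both within 2-fold. Zfp800, whose human counterpart represses enteroendocrine genes in intestinal cells, had a signal of 1184 on the LPS array and 195 on the control array, 6.07-fold higher. All 7 of its probe sets were higher, with log2 ratios from 1.35 to 3.06. The signals of these probe sets ran from 156 to 1188 on the LPS array and from 46.4 to 220 on the control array. Zfp811 had a signal of 155 on the LPS array and 17.1, under the floor, on the control array, at least 4.43-fold higher. Its other probe set read 252 on the LPS array and 4.72 on the control array. On the control array both probe sets of Zfp811 were under the floor.

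Zfp281, a zinc finger factor known for its part in the pluripotency network of embryonic stem cells, had signals of 1050 on the LPS array and 360 on the control array, 2.91-fold higher. Its other probe set gave 1016 on the LPS array and 274 on the control array. Zfp263, which carries both a SCAN and a KRAB domain, had signals of 1648 on the LPS array and 666 on the control array, 2.48-fold higher. These genes each had a second probe set in the same direction, with a log2 ratio of 1.89 for Zfp281 and 1.36 for Zfp263. Zfp513, whose human counterpart is known from an inherited retinal disease, had signals of 480 on the LPS array and 183 on the control array, 2.63-fold higher by its 1 measured probe set. Zfp691 had 104 on the LPS array and 48.0 on the control array, 2.17-fold higher, also by a single measured probe set.

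Zfp319 was less settled. Its brightest probe set read 213 on the LPS array and 82.6 on the control array, 2.57-fold higher, but the next read 52.9 on the LPS array and 157 on the control array. Its 4 probe sets spread from -1.57 to 1.36 on the log2 scale, and their median was -0.11. The 5 genes next in order were within 2-fold as deposited: Zfp324 with a log2 ratio of 0.99, Zfp719 with 0.97, Zfp592 with 0.89, Zfp420 with 0.88 and Zfp710 with 0.79. Of these, Zfp592 and Zfp420 had a probe set in the other direction, at -1.11 and at -0.53, and Zfp710 had one at -0.01.

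At the other end of the order stood several genes that are known for little beyond their zinc fingers. Zfp704 had a signal of 23.0, under the floor, on the LPS array and 331 on the control array, at least 12.4-fold lower. Its other probe set read 5.01 on the LPS array and 185 on the control array. Both of its probe sets were thus above the floor on the control array and below it on the LPS array. Zfp367, whose human counterpart was described as an activator of globin genes in erythroid cells, had 86.5 on the LPS array and 525 on the control array, 6.07-fold lower, with its other probe set at a log2 ratio of -0.80. Zfp266, a KRAB zinc finger gene, had 71.5 on the LPS array and 426 on the control array, 5.96-fold lower, and its 4 probe sets ranged from -2.57 to -0.44. The dimmer probe set of Zfp367, above the floor on both arrays, gave a smaller difference in the same direction. The dimmer ones of Zfp266 were under the floor on the LPS array (24.7, 17.1 and 21.7). The floor thus fixes their direction, their ratios are bounds, and they are no check on the brightest one.

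Zfp760 had signals of 21.8, under the floor, on the LPS array and 180 on the control array, at least 6.75-fold lower. Zfp688 had 12.5, under the floor, on the LPS array and 152 on the control array, at least 5.71-fold lower. Each of these genes rests on 1 probe set. Zfp944 was 5.69-fold lower (29.2 on the LPS array, 166 on the control array) and Zfp763 was 5.40-fold lower (30.0 on the LPS array, 162 on the control array). Both LPS signals lay just above the floor. With the floor raised to the 65th percentile, the log2 ratios were -1.47 for Zfp944 and -1.43 for Zfp763. They were then -2.47 for Zfp704, -1.59 for Zfp760 and -1.34 for Zfp688, and the rest of the 12 lowest changed little or not at all. Zfp369, a relative of the gene for the neurotrophin receptor interacting factor NRIF (Zfp110), had 60.2 on the LPS array and 276 on the control array, 4.59-fold lower. Zfp110 itself had a log2 ratio of -0.90. The remaining genes among the 12 lowest were Zfp52 (4.23-fold lower), Zfp931 (4.13-fold), Zfp120 (4.03-fold) and Zfp101 (3.99-fold). Zfp763, Zfp369, Zfp931 and Zfp120 also rest on 1 measured probe set each.

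As deposited and under all 5 scalings, 24 Zfp genes were lower by 2-fold or more, 9.16% of those measured, where 11.8% of all measured genes were. These 24 include the 12 named above, and 8 of them had 2 or more measured probe sets, all lower, while the other 16 rest on 1. A probe set above the floor on the control array alone can only be lower, as for Zfp704 and the dimmer ones of Zfp266. Across the Zfp genes, 96 had 2 or more measured probe sets, and in 80 of these all probe sets lay on the same side of 0. Those 80 also count probe sets whose direction the floor fixes. The SD of the log2 ratio between probe sets of a gene had a median of 0.35 over 67 Zfp genes with at least 2 probe sets on both arrays. That figure is a technical gauge of the probe sets and says nothing of the spread between cultures. Besides Zfp319, Zfp266, Zfp592 and Zfp367, the widest spreads were those of Zfp398 (-1.85 to 0.26) and Zfp444 (-1.53 to 0.36).

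**Figure D3:**
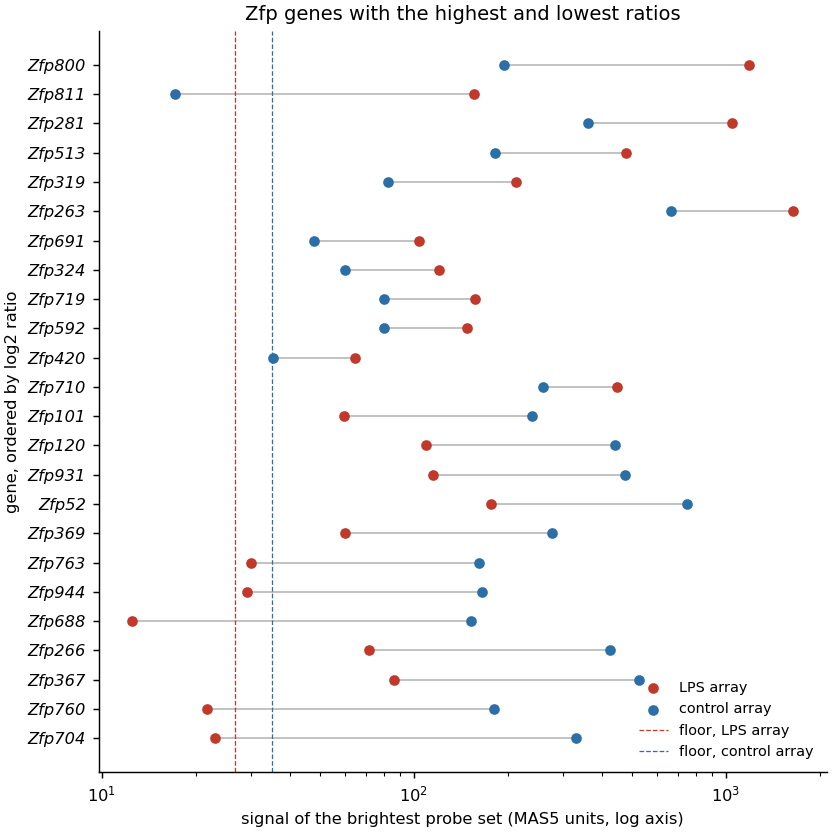
Signal of the brightest probe set (horizontal, MAS5 units, log axis) on the LPS array (red) and the control array (blue) for 24 Zfp genes, the 12 of highest and the 12 of lowest log2 ratio, in order of that ratio (vertical). Dashed lines are the floors of 26.7 on the LPS array and 35.1 on the control array; Zfp704, Zfp760 and Zfp688 lie under the floor on the LPS array and Zfp811 on the control array.

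The sequence upstream of the start site was read for the Zfp genes to show what the members at both ends of the order look like there. RefSeq windows of assembly GRCm38.p6 were matched for 217 of the 262 genes, as 265 windows, since some genes have several starts. The 3 highest and the 3 lowest Zfp genes that have a single window are printed below, as the 250 bases before the annotated start, read 5′ to 3′ on the strand of the gene. Capitals mark each match, on either strand, to 1 of 9 motifs.
Zfp811: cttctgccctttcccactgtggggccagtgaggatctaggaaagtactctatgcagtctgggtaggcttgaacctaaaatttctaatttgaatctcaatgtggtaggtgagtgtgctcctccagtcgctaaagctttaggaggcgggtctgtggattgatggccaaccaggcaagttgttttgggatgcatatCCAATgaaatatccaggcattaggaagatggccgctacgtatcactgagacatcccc
Zfp281: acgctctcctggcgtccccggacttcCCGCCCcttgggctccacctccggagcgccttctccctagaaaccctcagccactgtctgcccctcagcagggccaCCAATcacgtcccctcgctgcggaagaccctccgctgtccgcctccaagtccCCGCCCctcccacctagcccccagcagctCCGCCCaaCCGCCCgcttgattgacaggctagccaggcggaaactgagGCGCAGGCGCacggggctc
Zfp319: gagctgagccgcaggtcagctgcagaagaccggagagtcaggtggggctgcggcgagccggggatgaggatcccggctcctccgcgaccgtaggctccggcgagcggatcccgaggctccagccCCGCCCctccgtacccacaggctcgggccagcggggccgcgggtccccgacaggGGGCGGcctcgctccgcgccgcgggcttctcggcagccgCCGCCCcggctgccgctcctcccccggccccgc
Zfp760: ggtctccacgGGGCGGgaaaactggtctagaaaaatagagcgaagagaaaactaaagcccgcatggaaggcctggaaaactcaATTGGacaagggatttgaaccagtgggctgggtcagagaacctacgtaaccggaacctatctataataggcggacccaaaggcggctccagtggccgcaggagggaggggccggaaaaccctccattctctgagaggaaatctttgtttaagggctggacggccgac
Zfp266: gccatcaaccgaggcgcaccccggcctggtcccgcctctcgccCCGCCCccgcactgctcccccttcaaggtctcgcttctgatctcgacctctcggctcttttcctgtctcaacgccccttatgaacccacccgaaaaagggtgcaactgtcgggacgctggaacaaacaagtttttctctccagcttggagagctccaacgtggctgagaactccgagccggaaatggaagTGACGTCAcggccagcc
Zfp688: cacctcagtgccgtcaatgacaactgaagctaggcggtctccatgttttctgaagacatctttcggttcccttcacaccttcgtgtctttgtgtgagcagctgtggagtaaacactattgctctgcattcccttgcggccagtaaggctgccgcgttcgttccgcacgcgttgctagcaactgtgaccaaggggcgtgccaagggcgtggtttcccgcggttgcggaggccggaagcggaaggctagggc
The windows of Zfp281 at chr1:136624651-136624900 (plus strand) and Zfp319 at chr8:95331812-95332061 (minus strand) hold 4 and 3 GC boxes, and that of Zfp281 also a CCAAT box and an NRF1 motif. Zfp811 lies at chr17:32809932-32810181 (minus strand) and holds a CCAAT box and none of the other motifs. Among the lower members, Zfp760 at chr17:21707491-21707740 (plus strand) holds a CCAAT box and a GC box, Zfp266 at chr9:20521420-20521669 (minus strand) a CRE and a GC box, and Zfp688 at chr7:127422035-127422284 (minus strand) none of the 9 motifs. The windows of Zfp281 and Zfp319 have a G plus C content of 69.6% and 78.4%, that of Zfp811 48.4%, and those of Zfp760, Zfp266 and Zfp688 54.0%, 61.2% and 57.6%.

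Over all 265 Zfp windows, the CCAAT box (CCAAT) was found in 45.3%, against 33.8% of all 32851 windows and 35.04% of the windows of measured genes. The ETS motif (CCGGAAGT) was found in 9.81% of Zfp windows, against 2.88% of all windows and 5.83% of the windows of measured genes. The GC box (GGGCGG) was found in 44.9%, which lies above the 32.7% of all windows and below the 55.7% of the windows of measured genes. The NRF1 motif (GCGC, any base, TGCGC) was in 7.92% of Zfp windows, against 3.74% of all windows and 7.87% of those of measured genes, and the CRE (TGACGTCA) was in 4.15%, against 1.55% and 2.49%. The TATA motif (TATAAA) was in 6.42% of Zfp windows, against 12.4% of all windows and 6.87% of those of measured genes.

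Motifs of factors that LPS is known to activate were searched as well. The kappa-B motif (GGG, any 3 bases, TTCC), read by NF-kB, was in 7.92% of Zfp windows, against 4.65% of all windows and 5.17% of the windows of measured genes. The AP-1 motif (TGANTCA) was in 3.02% of Zfp windows, against 6.75% of all windows and 4.81% of those of measured genes. The interferon-stimulated response element (GAAA, any 2 bases, GAAA) was in 1.51% of Zfp windows, against 2.98% of all windows and 2.74% of those of measured genes. In the 10 windows of the 7 higher genes there were 0 matches to any of these 3, and of the 111 windows of the lower genes 9 held kappa-B (8.11%), 4 AP-1 and 0 the interferon element. Of the 144 windows of the Zfp genes within 2-fold, 12 held kappa-B (8.33%), 4 AP-1 and 4 the interferon element. Matches overlapped between kappa-B and the GC box in 4 Zfp windows, between kappa-B and ETS in 2 and between the CCAAT and GC boxes in 2. A missing match says only that these letters are not in the 250 bases searched.

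Zfp genes that neighbour each other showed similar ratios in some places and not in others. In RefSeq gene order, 93 of the measured Zfp genes fell into 12 runs of at least 5, in which at most 3 other protein-coding genes separate a Zfp gene from the next. The longest run has 18 members, from Zfp677 to Zfp40, and holds Zfp51, Zfp52, Zfp53 and Zfp54. Its median log2 ratio was -1.31, all 18 were below 0 and 14 were past 2-fold (77.8%, background 26.2%). Past 2-fold were 7 after median centring (background 15.3%) and 5 after loess (background 12.8%). The lowest of them were Zfp760 at -2.76 or less, Zfp944 at -2.51 and Zfp52 at -2.08, and the nearest to 0 was Zfp51 at -0.36. After median centring 17 of the 18 were below 0, with a median of -0.89, and after loess 17 were, with a median of -0.71.

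A run of 16 from Zfp712 to Zfp493 had a median of -0.89. In it 4 members were lower by 2-fold or more as deposited (25%, background 26.2%) and 0 after median centring (background 15.3%). The run of 8 from Zfp871 to Zfp563 held opposite members side by side. In it Zfp811 was at 2.15 or more, while Zfp763 was at -2.43, Zfp472 at -1.83 and Zfp952 at 0.14. The run of 7 from Zfp398 to Zfp467 had a median of 0.01 and no member past 2-fold (background 26.2% lower and 8.22% higher). Zfp777 was highest in it at 0.75 and Zfp956 lowest at -0.99. Over all runs, 45.2% of the 93 genes were lower by 2-fold or more, against 39.6% of the 169 outside and a background of 26.2%. Neighbouring KRAB zinc finger genes are close copies, so their probe sets can bind each other's transcripts, and the part of this in the results was not tested. The runs were drawn after the ratios were known, so their medians are descriptions.

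**Figure D4:**
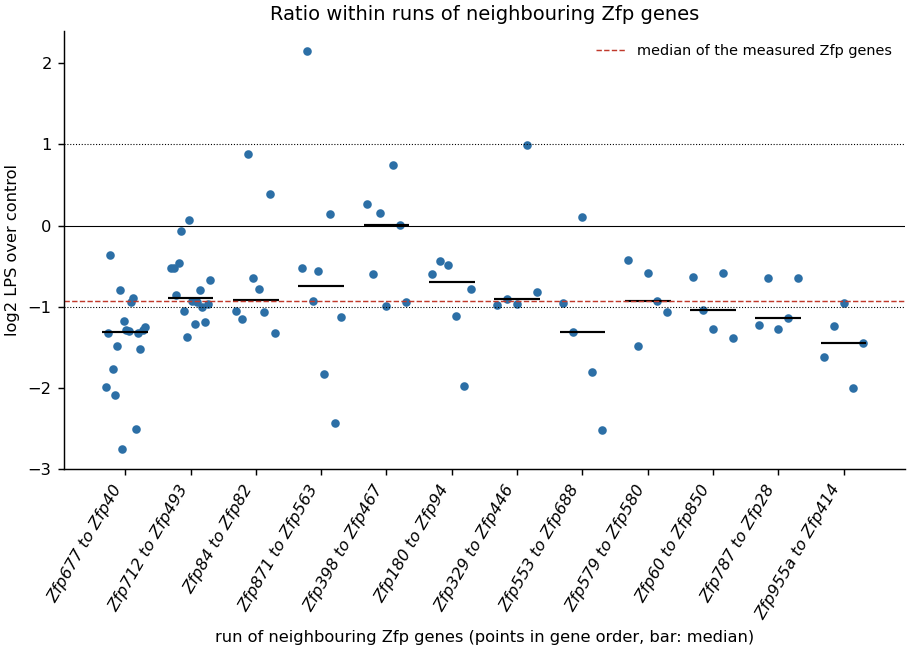
Log2 LPS over control (vertical) for the 93 measured Zfp genes in 12 runs of neighbours (horizontal, named by the first and last gene), as points in gene order with the median of each run as a bar. All 18 points of the first run lie below 0, whereas the run from Zfp871 to Zfp563 spans -2.43 to 2.15; the dashed line is the median of the measured Zfp genes, -0.93.

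Among Zfp genes of known role, those that silence mobile elements or imprinted genes lay on the lower side save 1. That makes 80% below 0, beside 85.9% of the measured Zfp genes and 71.1% of all measured genes. Of 6 listed, 5 were measured, and their median was -0.81. Past 2-fold were 0 on the higher side (background 8.22%) and 1 on the lower (20%, background 26.2%). Zfp809, which silences proviruses in embryonic stem cells, had a signal of 70.3 on the LPS array and 234 on the control array, 3.32-fold lower by its 1 probe set. Zfp445, which protects imprints together with ZFP57, had 570 on the LPS array and 1047 on the control array, a log2 ratio of -0.88. Zfp568, the repressor of a placental Igf2 transcript, had 144 on the LPS array and 110 on the control array, at 0.39, so that it lay on the other side. Zfp932, a silencer of endogenous retroviruses, was at -0.81. Zfp708 had 8.13, under the floor, on the LPS array and 38.3 on the control array, a direction that the floor rule fixes. Zfp57 itself was under the floor on both arrays.

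Sequence-specific regulators of transcription had members past 2-fold on both sides. Of 11 listed, 9 were measured, with Zfp281 and Zfp263 higher (22.2%, background 8.22%) and 1 lower (11.1%, background 26.2%), and the median was -0.45. The median was -0.032 after median centring and -0.011 after loess. The lower one was Zfp740, with 111 on the LPS array and 354 on the control array, 3.18-fold lower. Zfp148, which binds GC-rich promoters, had 194 on the LPS array and 340 on the control array, at -0.81, and its 6 probe sets ranged from -2.00 to -0.49. Zfp64 and Zfp90 were close to it, at -0.79 and -0.78. Zfp384 (-0.45), Zfp335 (-0.35) and Zfp410, the activator of Chd4 (-0.25), were nearest to 0, and the signs of Zfp335 and Zfp410 turned positive under 3 and 4 of the 5 scalings. Zfp711 was under the floor on both arrays, and Zfp143 had no probe set of its own.

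Partners of chromatin complexes had a median close to 0 by their brightest probe sets as deposited. Of 13 listed, 9 were measured, with 0 higher (background 8.22%), 1 lower (11.1%, background 26.2%) and a median of -0.13. The lower one, Zfp644, a partner of the histone methyltransferases G9a and GLP, had 197 on the LPS array and 403 on the control array, 2.05-fold lower, with 5 probe sets from -1.10 to -0.08. Zfp217, a component of CoREST complexes, had 375 on the LPS array and 643 on the control array, at -0.78. Zfp516 was at -0.82, with its other probe set at -1.55. Zfp687 (-0.13), Zfp219 (-0.071) and Zfp608 (-0.14) turned positive under 4 of the 5 scalings each, while the other probe set of Zfp608 was at -1.25. The human counterparts of Zfp592 and Zfp687 share a complex with ZMYND8, and these genes stood at 0.89 and -0.13, although the probe sets of Zfp592 disagree. Zfp462 had 35.7 on the LPS array and 17.1, under the floor, on the control array, and Zfp521, an inhibitor of EBF1, had 36.3 on the LPS array and 29.8, under the floor, on the control array. Zfp532, Zfp827 and Zfp423 were under the floor on both arrays, and Zfp609 had no probe set of its own. The median of this list took the other sign under scaling, at 0.16 with the poly-A controls, 0.29 after median centring and 0.47 after quantile normalization and after loess. It was further below 0 with the median of probe sets, at -0.39, and with a floor at the 65th percentile, at -0.45.

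All 7 RNA-binding and RNA-processing members were measured and, as deposited, below 0, where 71.1% of all measured genes were. Of the 7, 2 were past 2-fold on the lower side (28.6%, background 26.2%) and 0 on the higher (background 8.22%), and the median was -0.93. Zfp106, an RNA-binding protein needed for the upkeep of motor neurons and muscle, had 421 on the LPS array and 1116 on the control array, 2.65-fold lower, with 4 probe sets from -1.41 to -0.03. Zfp638, a nuclear RNA-binding protein, had 245 on the LPS array and 496 on the control array, 2.02-fold lower by its brightest probe set and at -1.05 by the other. Zfp326, which links RNA polymerase II to splicing, had 191 on the LPS array and 370 on the control array, at -0.95. Zfp346, a double-stranded RNA-binding protein, was at -0.93 and Zfp318, which governs IgD transcripts in B cells, at -0.55. Zfp830 was at -0.29 and Zfp385a at -0.042, and their signs turned under 3 and 5 of the 5 scalings. The sign of Zfp318 turned under 2, though its 4 probe sets all lay below 0 as deposited, from -1.88 to -0.55.

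Members that act on ribosomes, ubiquitin, SUMO or the spindle included bright genes on both sides. Of 6 listed, all were measured, with 0 higher (background 8.22%), 1 lower (16.7%, background 26.2%) and a median of -0.56. Zfp622, needed for late steps of large ribosomal subunit assembly, had 1559 on the LPS array and 2181 on the control array, at -0.48 by its brightest probe set. Its 3 probe sets lay between -0.56 and -0.46. Zfp207, which helps load BUB3 on kinetochores, had 1779 on the LPS array and 1312 on the control array, at 0.44, but its 6 probe sets ranged from -0.73 to 0.44. Zfp593, whose yeast relative takes part in export of the large ribosomal subunit, had 354 on the LPS array and 231 on the control array, at 0.62, with its other probe set at 0.016. Zfp598, the ubiquitin ligase of collided ribosomes, had 113 on the LPS array and 222 on the control array, at -0.97. Zfp451, a SUMO ligase, had 89.0 on the LPS array and 187 on the control array, 2.10-fold lower, with its 4 probe sets from -1.14 to -0.54. Zfp91, a ubiquitin ligase of the NF-kB-inducing kinase, had 641 on the LPS array and 993 on the control array, at -0.63.

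Other bright Zfp genes had modest ratios. Zfp871 had 831 on the LPS array and 1196 on the control array, at -0.52, and Zfp991 had 659 on the LPS array and 1087 on the control array, at -0.72. Probe sets differ in how strongly they bind, so these signals do not rank the genes by transcript number.

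**Figure D5:**
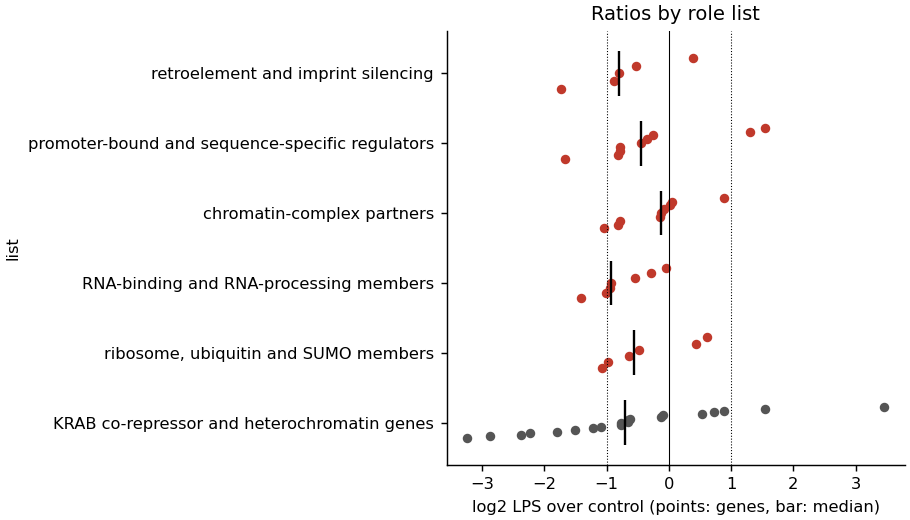
Log2 LPS over control (horizontal) for the measured Zfp genes of 5 role lists (red points) and for KRAB co-repressor and heterochromatin genes (grey points), with the median of each list as a bar and 2-fold as dotted lines. The 7 RNA-binding members, with a median of -0.93, all lie below 0 as deposited, where 71.1% of all measured genes do. Of the 7, 3 change sign under a scaling. The co-repressor genes run from -3.24 to 3.45.

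The genes through which KRAB zinc finger proteins act were measured beside them. Of 22 co-repressor and heterochromatin genes, 20 were measured, with a median of -0.71. Of the 20, 8 were lower (40%, background 26.2%) and 2 higher (10%, background 8.22%) by 2-fold or more. Trim28, the co-repressor itself, had a signal of 701 on the LPS array and 1189 on the control array, at -0.76. Setdb1, the methyltransferase it recruits, had 226 on the LPS array and 386 on the control array, at -0.77. Both genes thus lay on the lower side and within 2-fold by their brightest probe sets, while the other probe set of Trim28 was at -1.26. Atf7ip, the nuclear partner that stabilises SETDB1, had 67.3 on the LPS array and 494 on the control array, 7.34-fold lower, with its other probe set at a log2 ratio of -1.12. Cbx5, which encodes the heterochromatin protein HP1 alpha, had 116 on the LPS array and 402 on the control array, 3.47-fold lower, but its 4 probe sets ranged from -1.79 to 0.32.

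On the lower side of this list also stood the DNA methylation genes Uhrf1 (52.8 on the LPS array, 498 on the control array, 9.43-fold) and Dnmt1 (202 on the LPS array, 1051 on the control array, 5.20-fold), which are also known to follow DNA replication. The remodeller gene Chd3 was 4.70-fold lower, the methyltransferase gene Ehmt1 2.85-fold, the remodeller gene Atrx 2.34-fold and the HUSH complex gene Mphosph8 2.13-fold. On the higher side stood Daxx, the histone H3.3 chaperone gene, with 4163 on the LPS array and 380 on the control array, 10.96-fold higher by its 1 probe set. The deacetylase gene Hdac1 had 3056 on the LPS array and 1044 on the control array, 2.93-fold higher. After median centring 4 genes of this list were higher (background 13.1%) and 6 lower (background 15.3%). Scaling to the poly-A controls left 4 higher (background 11.0%) and 6 lower (background 18.2%). After loess 3 were higher (background 13.8%) and 6 lower (background 12.8%). Quantile normalization left 2 higher (background 11.6%) and 7 lower (background 15.6%), and the hybridization controls 2 higher (background 8.64%) and 8 lower (background 25.0%).

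Other zinc finger families were counted on the same arrays. Of 39 measured Zbtb genes, whose products pair zinc fingers with a BTB domain, 11 were past 2-fold on the lower side (28.2%, background 26.2%) and 0 on the higher (background 8.22%), and the median was -0.54, which took the other sign, 0.10, after loess. Of 14 measured Zscan and Zkscan genes, 6 were lower (42.9%) and 0 higher beside the same background, with a median of -0.77. Of 13 measured Klf genes, 5 were lower (38.5%) and 1 higher (7.69%), with a median of -0.59, and their quartiles of -2.08 and 0.53 lay further apart than those of the Zfp genes, -1.26 and -0.36. The differences between the families were not tested, since 1 array per condition allows no test.

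The rule that chose the Zfp genes has an edge at the floor. Just inside it were Zfp708, described above, Zfp385c (29.4 on the LPS array, 39.3 on the control array) and Zfp870 (21.3 on the LPS array, under the floor, 39.4 on the control array). Just outside were Zfp78 (26.4 on the LPS array, 31.5 on the control array), Zfp941 (15.6 on the LPS array, 33.5 on the control array) and Zfp689 (15.4 on the LPS array, 32.8 on the control array). Of the 8 genes above the floor on the LPS array alone, Zfp811 was the only one past 2-fold (12.5%, against 13.0% of the 1055 such genes of the whole table). In 4 of them, such as Zfp541 (30.8 on the LPS array, 15.4 on the control array), the LPS signal lies between the floors of both arrays, so no fold is given. Of the 37 above it on the control array alone, 21 were lower by 2-fold or more (56.8%, against 53.5% of the 845 such genes of the whole table), a direction that the floor rule itself fixes. The other 16 include Zfp395 (1.67 on the LPS array, 52.3 on the control array), at least 1.96-fold lower.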

How the data were processed

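The authors deposited linear intensity values, MAS5 signals for each probe set of 1 LPS and 1 control array, as per the submitters' processing notes. Of the MAS5 settings, the version, the scaling target and any detection calls were not given in the sources used here. Over the 45037 probe sets that are not array controls the 2% trimmed mean was 187 on the LPS array and 204 on the control array, so no common scaling is seen. The platform annotation gives 34945 of them to 1 gene, and these were used. It gives 932 to several genes and 9160 to none. All 262 gene identifiers were found in the RefSeq gene table of GRCm38.p6, which served for names and gene order.

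Ratios are log2 LPS minus log2 control, with the 50th percentile of each array (26.7 on the LPS array, 35.1 on the control array) as its floor. With 1 array per condition no p-value was computed. The alternatives were other floors (35th or 65th percentile), log2 of the signal plus 16 with no floor, 5 scalings (quantile, median centring, loess with span 0.4, 18 hybridization controls, 24 poly-A controls), the median over the probe sets of a gene, only those probe sets whose names end in _at with no letter before it, genes at the floor on both arrays, and sizes of 3-fold or 1.5-fold. Protein-coding members alone were added after seeing the data.

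Named were the 12 highest and 12 lowest ratios, the 8 highest mean signals, the 43 genes of 5 role lists, 3 genes on each side of the floor rule, the 6 widest probe set spreads, and co-repressor genes past 2-fold with Trim28, Setdb1 and Cbx5. Other genes named for runs of neighbours were chosen after their values were seen. The members and lists were chosen with earlier results of these data known. Classes by protein domain were planned and are not analysed here. Simulated data, of genes at the floor or above on both arrays, were run through the ratios as deposited, median centring and loess alone. Only loess had set limits to pass, and the other steps were not tested in this way. Python 3.11.15, numpy 2.4.6, pandas 2.3.3 and statsmodels 0.14.6 were used.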

Additional observations from a re-analysis of the deposited data

How the results depend on the processing

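No paired analysis was possible because each condition has 1 array. A value is called moved here if it shifted by more than 0.35 on the log2 scale (the median SD between probe sets), or a count by over 1.5 times. Of 282 ratios of the 24 highest and lowest Zfp genes under the alternatives, 187 did not move, and 4 of the others took the other sign: Zfp319 at -0.11 and Zfp592 at -0.39 with the median of their probe sets, and Zfp420 at -0.49 under a 65th percentile floor and at -0.53 by probe sets ending in _at alone. Much of this tally is fixed by construction, so it is no measure of stability. The shifts of the hybridization controls (-0.048) and the poly-A controls (-0.29) are smaller than 0.35 and can move no ratio. The shift of median centring (-0.42) is larger and moves every ratio. Keeping only genes at the floor on both arrays, or only protein-coding ones, drops genes and changes no ratio. The counts of Zfp genes higher and lower, at 2-fold unless another size is given, were 16 and 32 under quantile normalization, 17 and 43 under median centring, 20 and 27 under loess, 14 and 62 under scaling to the poly-A controls, 2 and 30 at 3-fold, and 17 and 171 at 1.5-fold. The Zfp median was -0.39, -0.50 and -0.29 under the first 3 of these. Medians under quantile normalization were -0.19 for the silencing list, 0.47 for chromatin partners, -0.35 for RNA-binding members, -0.069 for Zbtb genes and -0.28 for Zscan and Zkscan genes. Under median centring they were -0.38, 0.29, -0.51, -0.12 and -0.35, with -0.032 for sequence-specific regulators, -0.14 for the ribosome, ubiquitin and SUMO members, -0.29 for the co-repressor genes and -0.17 for Klf genes. Under loess they were -0.24, 0.47, -0.17, 0.10 and -0.14, with -0.011 for sequence-specific regulators, -0.21 for the co-repressor genes and -0.20 for Klf genes. The number of co-repressor genes higher was 4 under median centring and under the poly-A controls. A floor at the 65th percentile put the Klf median at -1.17, and genes at the floor on both arrays alone put it at -0.98. These alternatives differ by construction in the shift they remove, and 56 of the 262 Zfp genes took the other sign under at least 1 scaling. Signal over background limits what can be read of the genes near the floor.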

Other observations

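Some probe sets of Zfp genes could not be given to 1 gene. The annotation lists 27 probe sets that share a Zfp gene with another gene, and 14 of these reached the floor. Of the 14, 5 had a signal lower by 2-fold or more on the LPS array (26.2% of all measured genes did) and 0 a higher one (8.22% did). The median log2 ratio of the 14 was -0.93. These probe sets were not used above and are given as values alone, since the transcripts they read cannot be told apart.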
